A study of Homo sapiens with 3 samples.

Results

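Orphan and adhesion G-protein-coupled receptors are cell-surface proteins whose genes carry the names GPR and a number, GPRC, or ADGR. They were described here in HCC827 cells and in 2 clones of the same line that grow in the presence of BIBW2992. All genes whose current symbol starts with ADGR, GPRC, or GPR and a number were taken, which gave 98 genes read by 139 probes, of 18852 genes that could be named on the array. Each gene was represented by its brightest probe, and a gene whose probes were below background on every array was counted as silent. Of the 98 genes, 95 are annotated as protein coding, 2 as long non-coding RNAs (ADGRB3-DT and ADGRL3-AS1) and 1 as a transcribed pseudogene (ADGRF2P). Among the coding genes, GPR15LG encodes a secreted ligand and GPR89B a Golgi ion-channel protein, and neither is a receptor.

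The resistant group held 2 clones, HCC827-BR1 (clone 1) and HCC827-BR2 (clone 2), each established from a single clone after 3 to 4 months of culture in rising concentrations of BIBW2992, up to 2 μM. The control was the unselected parental line HCC827, labelled as sensitive to the drug. HCC827 is a lung adenocarcinoma line with a mutated, drug-sensitive epidermal growth factor receptor (EGFR), and BIBW2992 (afatinib) blocks EGFR and related kinases irreversibly. Total RNA of each line was labelled with biotin and read on 1 Illumina HumanHT-12 v3 array, so resistant cells were represented by 2 arrays and parental cells by 1. The labels leave unsaid whether the clones were still exposed to BIBW2992 at RNA extraction, and resistance, cloning, time in culture and drug exposure cannot be told apart. Every p-value below rests on the spread between the 2 clones, moderated by a spread pooled over all genes. The pooled spread weighed more (4.08 prior against 1 residual degree of freedom). The parental line's own spread was not measured. Signals come from whole cultures, in which fewer cells that carry a transcript and less of it per cell cannot be told apart.

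A G-protein-coupled receptor crosses the membrane with a bundle of helices and, once activated, exchanges the nucleotide on a G protein, whose alpha and beta-gamma subunits then act on enzymes such as adenylyl cyclases and phospholipase C. Receptor kinases and arrestins end the signal, and RGS proteins speed up its decay on the G protein. Adhesion receptors (ADGR) add a long extracellular part that binds matrix proteins or proteins of neighbouring cells, and that is cut from the membrane part within the cell, leaving a tethered activating peptide. Orphan receptors (most GPR genes) have no agreed natural ligand, and the GPRC5 members were first known as genes induced by retinoic acid.

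Across the arrays the median signal was 57.3 units in clone 1, 61.2 units in clone 2 and 60.4 units in parental cells, and 34.5%, 33.8% and 35.1% of the 48803 probes lay above background on those arrays. Background was set on each array from its own dim probes. As a check, 576 probes of olfactory, taste and vomeronasal receptors and hair keratin-associated proteins, which lung cells should lack, gave 23 probes (3.99%) above background on each array. Of the 36 detected genes below, 10 had their highest signal under 1.2 times the threshold. The cells' identity was checked with marker genes. Of 8 detected epithelial markers, 7 were above background in each clone, against all 8 in parental cells, while KRT18 and SFTPB were silent on every array. Of the 8, 5 were lower in the clones by limma, beside 3.08% of all genes called lower. Among the 5, NKX2-1, the lung lineage factor, was at least 24.1-fold lower and entered the test only through the parental array. EPCAM, an epithelial surface protein also among the 5, differed by −4.23 on the log2 scale. The pan-leukocyte marker PTPRC, the T-cell marker CD3E, the endothelial markers CDH5 and VWF, the fibroblast markers COL1A1 and COL1A2, and the neuronal marker RBFOX3 were silent on every array. Other members of those lists were detected: 5 of 9 leukocyte genes (NCAM1, CSF1R, CD14, LYZ and MS4A1), 4 of 5 neural genes (MBP, SYT1, SNAP25 and GFAP), PECAM1 of the endothelial list and ACTA2 of the fibroblast list.

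Of the 98 genes, 36 (36.7%) were above background on at least 1 array, against 63.2% of all named genes, and 62 were silent. Adhesion genes were detected in 14 of 25 cases, GPRC genes in 3 of 5 and GPR genes in 19 of 68. The silent adhesion genes include ADGRE1, the human relative of the mouse macrophage antigen F4/80, ADGRL3, a latrophilin of neurons, and ADGRF4, a neighbour in the ADGRF family. GPRC5D and GPRC6A were silent as well. Silent GPR genes include the proton sensors GPR4, GPR65 and GPR132, the oxysterol receptor GPR183 of lymphocytes, the zinc-sensing GPR39, the pigment-cell protein GPR143 and the brain receptors GPR6, GPR12, GPR26 and GPR37L1. A silent gene was not detectable with these probes, and its absence was not shown. Just above the threshold were GPR35, ADGRA1 and GPR149, whose highest signal was 1.00 times the array's threshold, and just below it was GPR6, at 0.997 times.

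Among the 36 detected genes, 19 were above background on all 3 arrays, 5 only in both clones (ADGRB3, ADGRL2, GPR176, GPR3 and GPR37), and 6 only in parental cells (ADGRA2, ADGRB1, ADGRF1, ADGRG2, ADGRV1 and GPR35). A further 3 (ADGRA1, GPR34 and GPR52) were above background only in clone 1, GPR149 only in clone 2, and ADGRF5 and ADGRG7 in clone 2 and parental cells. Over all genes detected, 82.1% were above background on all 3 arrays, 3.37% only in both clones and 5.66% only in parental cells. The shares of the smaller patterns were 2.59% only in clone 1, 1.96% only in clone 2 and 1.58% in clone 2 and parental cells. Some of the patterns rest on narrow margins. In parental cells ADGRA2 (72.9 units), ADGRB1 (74.7), ADGRG2 (73.3) and GPR35 (69.28) lay just above that array's threshold of 69.26. GPR176 (69.3 in clone 1 and 72.8 in clone 2) and GPR3 (68.9 and 73.3) lay just above those arrays' thresholds of 66.1 and 70.7.

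**Figure D1:**
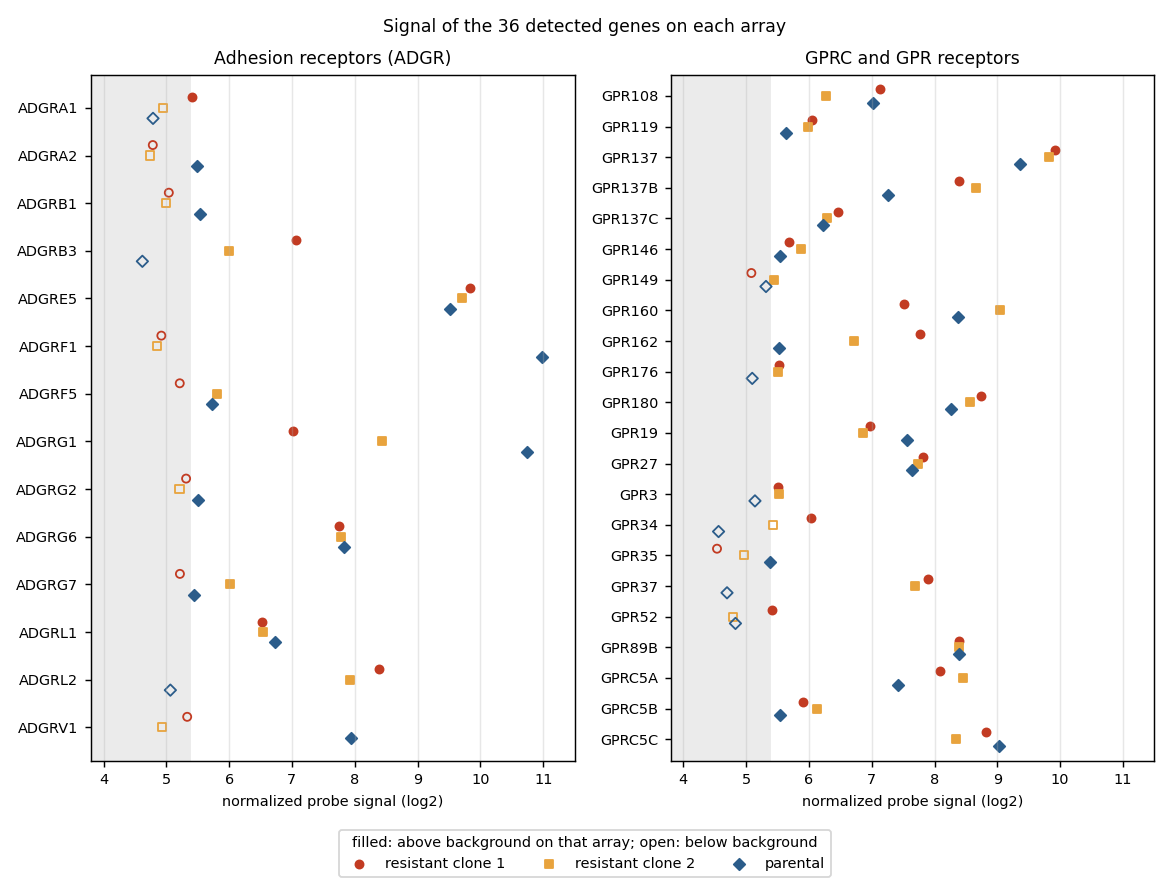
Normalized log2 signal (horizontal axis) of the brightest probe of each of the 36 detected genes, 1 array per point, for resistant clone 1, resistant clone 2 and parental cells. The grey band ends at the lowest of the arrays' background thresholds, 5.38, and open symbols are below background. ADGRF1 stands at 4.92 and 4.85 in the clones and at 10.98 in parental cells, while ADGRL2 and GPR37 stand above background only in the clones.

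By limma's moderated test, with Benjamini-Hochberg adjustment over 11914 genes, 4 of the 36 detected genes differed between resistant and parental cells at an adjusted p under 0.05, beside 5.75% of all genes tested. The adhesion receptors ADGRF1 and ADGRV1 fell, beside 3.08% of all genes called lower, and ADGRL2 and GPR37 rose, beside 2.67% of all genes called higher. Each of these 4 passed the filter on dim probes only through the group in which it was high. The 19 genes of the set above background on every array were also fitted with the other such genes alone. There limma called 0 of the 19, beside 2.88% of all 9797 genes of that kind. An unadjusted p under 0.05 was reached by 5 of the 19. In the fit over 11914 genes, an unadjusted p under 0.05 was reached by 11 of the 36, beside 20.5% of all genes. The median log2 difference was 0.16 over the 36 genes and 0.01 over all genes, with 20 of the 36 positive and 16 negative.

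ADGRF1, formerly GPR110, is an adhesion receptor whose ligand in mouse neurons is the lipid synaptamide. Its log2 signal was 4.92 in clone 1 and 4.85 in clone 2, both below background, against 10.98 in parental cells. The resistant and parental values do not overlap, and the parental array is the high one. On the brightest probe with the main processing, the ADGRF1 signal was at least 47.2-fold lower in resistant cells (log2 difference −6.10, SE 0.26, limma adjusted p = 0.00242). Its dimmer probes detected in parental cells gave differences of −3.69 and −3.06. Of its 4 probes, 3 were above background in parental cells only, and the fourth was below background on every array. Among 674 genes with that pattern, its bound ranked 5. The genes of that pattern whose parental signal lay nearest to its own, over these 3 arrays, were RAB25 (10.94), CEACAM6 (11.22), CST6 (10.65) and SGPP2 (10.56), a likeness of probe signal and not of transcript level.

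ADGRV1 encodes a very large adhesion receptor that links the stereocilia of hair cells in the inner ear and is mutated in a form of Usher syndrome. Its log2 signal was 5.33 in clone 1 and 4.94 in clone 2, both below background, against 7.94 in parental cells. Again the parental array alone was high. On the brightest probe with the main processing, the ADGRV1 signal was at least 5.75-fold lower in resistant cells (log2 difference −2.81, SE 0.30, limma adjusted p = 0.0121). Its second probe was also above background in parental cells only, at 5.71, with a difference of −0.80.

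**Figure D2:**
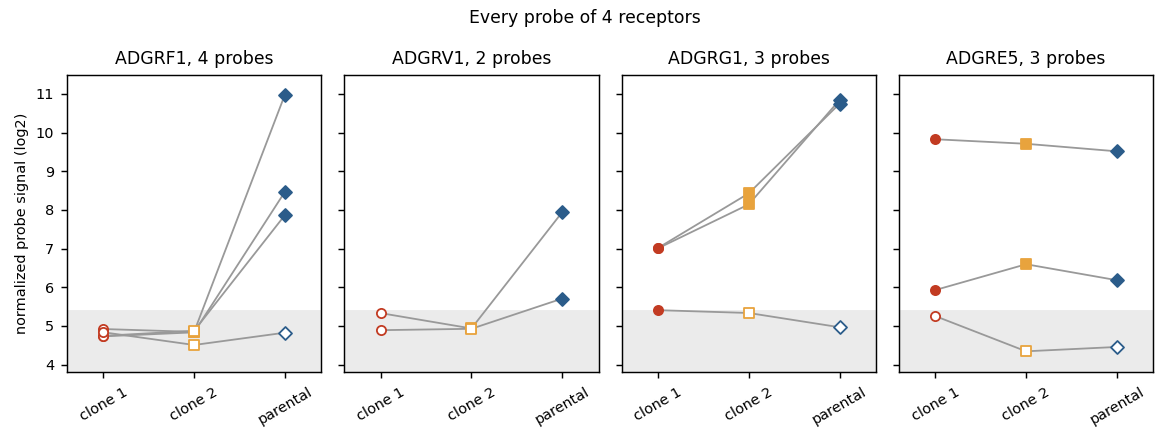
Normalized log2 signal (vertical axis) of every probe of ADGRF1, ADGRV1, ADGRG1 and ADGRE5 on the arrays of clone 1, clone 2 and parental cells, with lines joining the values of 1 probe. Open symbols are below background, and the grey band ends at 5.38. For ADGRF1, 3 of 4 probes are high in parental cells only, and the brightest probe of ADGRE5 stays between 9.51 and 9.83.

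The promoter windows of these receptors are printed because both receptors were below background in both clones while their starts differ in CpG content. They come from RefSeq (GRCh38.p14), run from 250 bases before to 50 bases after the annotated start, and have the CG pairs in capitals. The ADGRF1 window is chr6:47042283-47042582 on the minus strand, and the ADGRV1 window is chr5:90558547-90558846 on the plus strand.
ADGRF1: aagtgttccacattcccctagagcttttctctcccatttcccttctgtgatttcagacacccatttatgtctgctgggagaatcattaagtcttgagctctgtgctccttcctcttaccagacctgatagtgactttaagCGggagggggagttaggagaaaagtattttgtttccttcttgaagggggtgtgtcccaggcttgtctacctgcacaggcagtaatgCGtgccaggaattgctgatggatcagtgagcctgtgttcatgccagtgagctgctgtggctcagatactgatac
ADGRV1: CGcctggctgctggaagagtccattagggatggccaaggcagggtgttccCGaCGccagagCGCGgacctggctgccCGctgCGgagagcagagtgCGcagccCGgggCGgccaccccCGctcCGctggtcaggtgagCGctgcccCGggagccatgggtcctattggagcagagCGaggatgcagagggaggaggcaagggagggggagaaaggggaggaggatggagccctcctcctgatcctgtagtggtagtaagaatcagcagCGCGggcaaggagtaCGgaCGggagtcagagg

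The ADGRF1 window holds 2 CG pairs and the ADGRV1 window 19. Of all 27305 genes with a listed window, 18.99% have 2 or fewer pairs and 43.0% have 19 or more. The letters CAGGTG, the E2 box bound by zinc-finger repressors such as ZEB1 and SNAI1, occur, on either strand, once in the ADGRV1 window, 120 bases before the start, and not in that of ADGRF1. They occur in 20.6% of all windows, and a match is a description of these letters only. The cAMP response element (TGACGTCA) and the AP-1 element (TGANTCA), searched on both strands, are in neither window. They occur in 1.98% and 7.76% of all windows.

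A window was listed for 74 of the 98 genes. The first listed window had a median of 23.5 CG pairs in the 22 detected genes and 7 in the 52 silent genes, beside 14 over all genes. ADGRL2 has 8 listed windows with between 4 and 34 CG pairs, and which of them its probe reads was not determined.

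ADGRL2, latrophilin 2, is an adhesion receptor that binds teneurins and FLRT proteins on neighbouring cells. Its log2 signal was 8.38 in clone 1 and 7.92 in clone 2, against 5.06 in parental cells, where it was below background. Both clones lay above the parental array. With the main processing, the ADGRL2 signal was at least 6.84-fold higher in resistant cells (log2 difference 3.09, SE 0.31, limma adjusted p = 0.0108). It has 1 probe, so no second probe could be compared.

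GPR37, a proposed receptor for prosaposin that is also a substrate of the ubiquitin ligase parkin, had log2 signals of 7.90 in clone 1 and 7.69 in clone 2, against 4.70 in parental cells, below background. The clones lay close together and both above the parental array. With the main processing, the GPR37 signal was at least 5.34-fold higher in resistant cells (log2 difference 3.10, SE 0.27, limma adjusted p = 0.00778).

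By size alone, a difference of 2-fold or more upward was seen in both clones for 5 of the 36 genes (ADGRB3, ADGRL2, GPR137B, GPR162 and GPR37), beside 4.68% of all genes, and downward for 3 (ADGRF1, ADGRG1 and ADGRV1), beside 5.27%. Taken by itself, clone 1 had 9 genes at least 2-fold off the parental array, beside 14.3% of all genes, and clone 2 had 9, beside 14.9%. The 9 and the 9 differ only in that GPR34 is in the first and GPRC5A in the second. For ADGRB3 and GPR34, one side is below background, and the size counts the fitted value: the bounds are at least 3.23-fold for ADGRB3 in clone 1, 1.54-fold for it in clone 2 and 1.57-fold for GPR34 in clone 1. Each clone is set against the same parental array.

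**Figure D3:**
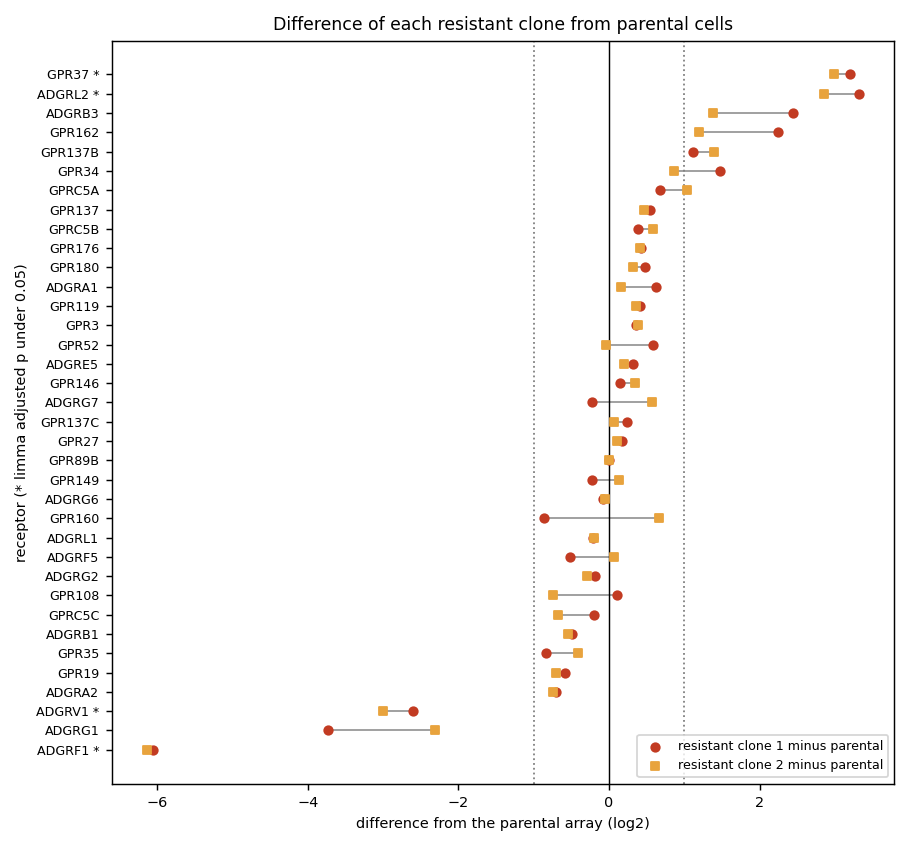
Log2 difference from the parental array (horizontal axis) of each of the 36 detected genes, with resistant clone 1 and resistant clone 2 as separate points joined by a line. Dotted lines mark a 2-fold difference, and an asterisk marks a limma adjusted p under 0.05. ADGRF1, at −6.06 in clone 1 and −6.13 in clone 2, lies farthest from 0.

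ADGRG1, formerly GPR56, binds collagen III and the crosslinking enzyme TGM2 and is needed for the layering of the cerebral cortex. Its log2 signal was 7.01 in clone 1 and 8.43 in clone 2, against 10.75 in parental cells, and all 3 values were above background. Its other bright probe read 7.01 in clone 1, 8.14 in clone 2 and 10.84 in parental cells. Its dim probe read 5.41 in clone 1 and 5.33 in clone 2, against 4.97 in parental cells, and was above background only in clone 1. Both clones were low on the bright probes but not on the dim one, and on the brightest they lay 1.41 apart. There the difference of −3.02 (SE 0.60) missed the threshold (limma adjusted p = 0.060). It passed with median scaling (adjusted p = 0.0448) and without the filter on dim probes (adjusted p = 0.0365), and over all settings the adjusted p lay between 0.0365 and 0.0772. The mean of its probes gave a difference of −1.96.

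ADGRB3, a brain adhesion receptor that binds C1q-like proteins at synapses, had log2 signals of 7.07 in clone 1 and 5.997 in clone 2, against 4.62 in parental cells, below background. The bound is at least 2.23-fold higher in resistant cells, and the fitted difference was 1.91 (limma adjusted p = 0.109). GPR162, an orphan receptor, had 7.77 in clone 1 and 6.71 in clone 2, against 5.52 in parental cells (difference 1.72, limma adjusted p = 0.133). GPR137B, a lysosomal membrane protein, had 8.39 in clone 1 and 8.66 in clone 2, against 7.26 in parental cells (difference 1.26, limma adjusted p = 0.0787). These genes were picked as at least 2-fold higher in both clones, so the clones' shared direction follows from the choice. None of them passed the threshold. The second probe of GPR162 was below background on every array, with a difference of 0.007.

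The clones were at least 2-fold apart for 4 of the 36 genes, beside 3.78% of all genes, a comparison of 1 array with 1 array that allows no test. GPR160, an orphan receptor, read 9.03 in clone 2 and 7.51 in clone 1, with parental cells between them at 8.38. ADGRG1 was higher in clone 2, by 1.41 on the log2 scale. With a larger offset, without background correction or with the authors' processed values, GPR160 and ADGRG1 were the 2 receptors still that far apart, and with the mean of a gene's probes ADGRG1 no longer was, while GPR160, ADGRB3 and GPR162 were. ADGRB3, which differed by −1.07, and GPR162, which differed by −1.05, were lower in clone 2 than in clone 1.

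The remaining detected adhesion genes lay closer to their parental values. ADGRE5 (CD97), which binds the complement regulator CD55, had log2 signals of 9.83 in clone 1 and 9.71 in clone 2, against 9.51 in parental cells (difference 0.25, limma adjusted p = 0.649). ADGRG6, a collagen IV receptor needed for the myelination of peripheral nerves, had 7.75 and 7.77 in the clones, against 7.83 in parental cells. ADGRL1, the latrophilin bound by spider venom toxin, had 6.52 and 6.54 in the clones, against 6.73 in parental cells. Those 3 receptors were above background on every array. ADGRF5, which limits surfactant in the alveoli, had 5.21 in clone 1 and 5.81 in clone 2, against 5.73 in parental cells, so that it lay near background throughout (difference −0.22, limma adjusted p = 0.769). In RefSeq's order ADGRF5 is the nearest coding gene with a named probe on one side of ADGRF1, on chromosome 6. ADGRG2, a receptor of the epididymis, and ADGRG7, of the intestine, stayed between 5.21 and 6.01 on all arrays.

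GPRC5A, a retinoic-acid-induced gene whose loss in mice leads to lung tumours, had log2 signals of 8.09 in clone 1 and 8.45 in clone 2, against 7.42 in parental cells (difference 0.85, limma adjusted p = 0.194). GPRC5B had 5.91 and 6.12 in the clones, against 5.53 in parental cells. GPRC5C had 8.82 and 8.34 in the clones, against 9.02 in parental cells (difference −0.44, limma adjusted p = 0.5001). Both clones lay above the parental array for the first 2 genes and, on the brightest probe, below it for GPRC5C. On the other GPRC5C probes, also above background on every array, clone 1 differed from parental cells by 0.098 and 0.055. Clone 2 differed there by −0.232 and −0.226. None of the 3 genes passed the threshold.

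Of the other GPR genes, the lysosomal GPR137 had 9.91 and 9.83 in the clones, against 9.37 in parental cells (difference 0.50, limma adjusted p = 0.356). GPR180 had 8.73 and 8.57 in the clones, against 8.26 in parental cells (difference 0.40, limma adjusted p = 0.475). GPR89B had 8.39 and 8.38 in the clones, against 8.38 in parental cells, and its near-identical copy GPR89A may share its probes. GPR19 had 6.98 and 6.86 in the clones, against 7.56 in parental cells, and GPR3, a receptor that raises cyclic AMP without a ligand, had 5.50 and 5.52 in the clones, against 5.14 in parental cells, below background.

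The other detected genes were dim or differed little, and none passed the threshold. GPR34, a lysophosphatidylserine receptor, had 6.03 in clone 1 and 5.43 in clone 2, against 4.56 in parental cells, and only clone 1 was above background (difference 1.17, limma adjusted p = 0.152). ADGRA2, a co-receptor for WNT7 in brain vessels, had 4.78 and 4.74 in the clones, both below background, against 5.48 in parental cells (difference −0.72, limma adjusted p = 0.209). ADGRB1, which takes part in the engulfment of dying cells, had 5.04 and 4.99 in the clones, both below background, against 5.54 in parental cells. Those 2 adhesion genes were above background in parental cells by a narrow margin, and the bounds in clone 1 are at least 1.06-fold lower for ADGRA2 and 1.10-fold lower for ADGRB1.

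GPR108 had 7.13 in clone 1 and 6.28 in clone 2, against 7.02 in parental cells, so that clone 2 was the low array. GPR27, an orphan receptor conserved in the brain, had 7.81 and 7.74 in the clones, against 7.64 in parental cells. GPR137C had 6.46 and 6.29 in the clones, against 6.22 in parental cells. GPR137C, GPR137B and GPR137 thus all had their lowest value on the parental array, with differences of 0.15, 1.26 and 0.50. None of them passed the threshold (limma adjusted p = 0.800 for GPR137C), and the share of all genes with that order was not counted. GPR119, known as a receptor for oleoylethanolamide in the gut and pancreatic islets, had 6.04 and 5.99 in the clones, against 5.64 in parental cells. GPR146 had 5.68 and 5.88 in the clones, against 5.53 in parental cells. GPR176, an orphan receptor of the circadian clock in mice, GPR35, GPR52, GPR149 and ADGRA1 reached no more than 5.52 on any array, close to background.

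With each gene at its brightest probe, the 8 genes with the highest mean signal were GPR137, ADGRE5, ADGRG1, GPRC5C, GPR180, GPR89B, GPR160 and GPR137B, and since probes bind differently, that is no order of transcript levels.

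The signalling machinery that these receptors share was read from lists of its genes. The lists here and below were chosen with earlier results of these data known, so their counts are a description only. Of all genes tested, 5.75% were called. None of the 11 detected G alpha genes, the 10 beta and gamma genes, the 3 receptor kinase and arrestin genes or the 20 effector genes passed limma's test, and their median log2 differences were 0.19, 0.35, −0.53 and 0.00. An unadjusted p under 0.05 was reached by 7 of these 44 genes, 6 of them higher and 1 lower, beside 20.5% of all genes. GNAS, the alpha subunit that activates adenylyl cyclase, had 13.90 and 13.91 in the clones, against 13.75 in parental cells. GNB1, a beta subunit, had 12.69 and 12.43 in the clones, against 11.95 in parental cells (difference 0.61, limma adjusted p = 0.304). ARRB1, an arrestin, had 7.39 and 7.51 in the clones, against 7.42 in parental cells. Of 12 detected RGS genes 1 rose and 0 fell by limma, while an unadjusted p under 0.05 was reached by 5, of which 2 were higher and 3 lower. The called one, RGS2, which blunts signalling through Gq, had 14.34 and 14.02 in the clones, against 11.61 in parental cells (difference 2.57, SE 0.28, limma adjusted p = 0.0133).

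Of 15 detected ligands and partners of adhesion receptors, 4 rose and 1 fell, beside 5.75% of all genes called, with a median log2 difference of 0.67. This list too was chosen with earlier results known, and TENM3 and C1QL1 passed the filter on dim probes only through the clones. TENM3, a teneurin and ligand of latrophilins such as ADGRL2, had 11.49 and 11.11 in the clones, against 4.99 in parental cells, below background. It was at least 60.7-fold higher in resistant cells (limma adjusted p = 0.00274). COL4A1, a chain of the basement-membrane collagen bound by ADGRG6, had 9.40 and 9.92 in the clones, against 6.37 in parental cells (difference 3.29, limma adjusted p = 0.0104). COL4A2, named after its values were seen, had 7.36 and 7.53 in the clones, against 5.56 in parental cells (difference 1.88, limma adjusted p = 0.0248). C1QL1, of the C1q-like family bound by ADGRB3, was at least 3.13-fold higher (limma adjusted p = 0.0312). TGM2, a partner of ADGRG1, had 8.82 and 9.50 in the clones, against 11.28 in parental cells (difference −2.12, limma adjusted p = 0.0423).

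Of 22 detected receptors outside the GPR and ADGR names, 3 rose and 0 fell by limma, beside 5.75% of all genes called. The median log2 difference was −0.09. An unadjusted p under 0.05 was reached by 4 higher and 5 lower genes of that list, beside 20.5% of all genes. LPAR1, a lysophosphatidic acid receptor, had 9.59 and 9.73 in the clones, against 5.23 in parental cells, below background, and was at least 19.5-fold higher (limma adjusted p = 0.00441). The sphingosine phosphate receptor S1PR1 had 7.57 and 8.15 in the clones, against 5.64 in parental cells (difference 2.22, limma adjusted p = 0.0312). S1PR5, near background with 5.99 and 5.89 in the clones, against 4.33 in parental cells, below background, was at least 1.48-fold higher (limma adjusted p = 0.0357). LPAR1 and S1PR5 passed the filter on dim probes only through the clones.

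**Figure D4:**
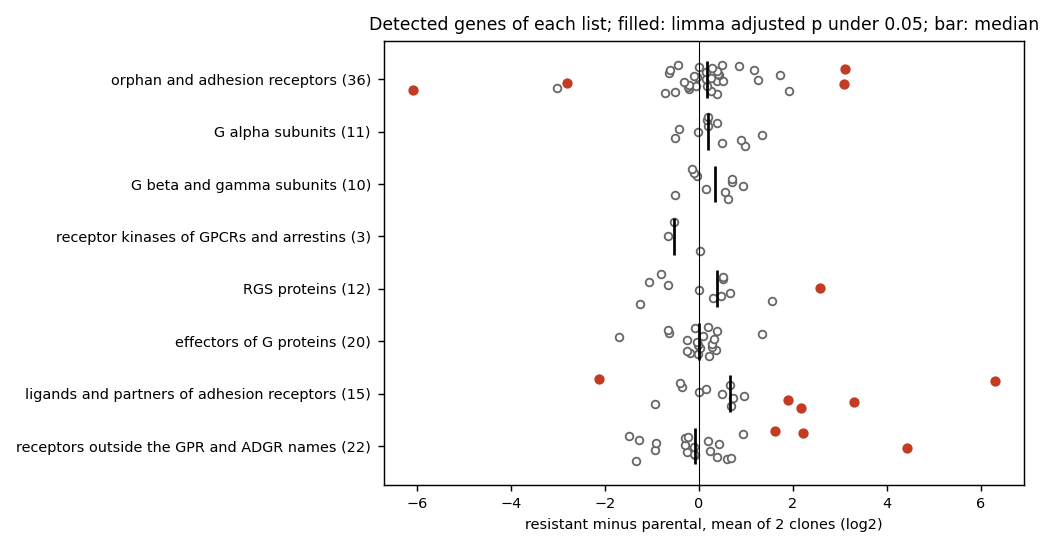
Log2 difference of resistant minus parental cells (horizontal axis, mean of the 2 clones) for each detected gene of the receptor set and of 7 lists of its signalling partners, with the number of detected genes in brackets. Filled points have a limma adjusted p under 0.05 and bars are medians. The G protein subunits, kinases, arrestins and effectors hold no filled point, while 5 of the 15 adhesion ligands and partners do. The lists were chosen with earlier results of these data known.

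The nearest coding genes with a named probe, on each side of the called receptors in RefSeq's order, gave values of their own. Coding genes without a named probe were passed over, so these are not always the adjacent genes. Beside ADGRL2 on chromosome 1, TTLL7 on one side was higher in resistant cells by 1.95 (limma adjusted p = 0.0278), while IFI44 on the other differed by −3.01 (limma adjusted p = 0.189). Beside ADGRV1 on chromosome 5, ARRDC3 differed by −1.68 (limma adjusted p = 0.0399) and LYSMD3 by −0.26 (limma adjusted p = 0.733). Beside ADGRF1, TNFRSF21 differed by −0.90 (limma adjusted p = 0.160) and ADGRF5, given above, by −0.22. Beside GPR37 on chromosome 7, POT1 differed by −0.11 (limma adjusted p = 0.881), and TMEM229A was silent. Of the next genes out, IFI44L differed by −2.58, PRKACB by −0.65, CD2AP by −0.80, POLR3G by 0.17, NR2F1 by 0.30 and SPAM1 by 0.255, and none of these 6 passed the threshold. MEP1A and GRM8 were silent.

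Some markers of epithelium and of other cell types differed by limma in the same comparison, while PECAM1 and ACTA2 did not pass the threshold. Epithelial markers summed to 78.1 in clone 1 and 68.6 in clone 2, against 99.4 in parental cells (sum of log2 signals of the 8 detected genes). Of 5 detected leukocyte-list genes, NCAM1, also a neural cell adhesion protein, rose at least 9.37-fold, and CSF1R and CD14 fell. Of all genes tested, 5.75% were called. NCAM1 passed the filter on dim probes only through the clones, and CSF1R only through the parental array. The leukocyte list summed to 30.4 and 29.3 in the clones, against 29.4 in parental cells. The neural list, in which MBP and SYT1 fell, summed to 27.3 and 26.5 in the clones, against 30.5 in parental cells. The endothelial list had 1 detected gene, PECAM1, at 6.54 and 5.85 in the clones, against 6.71 in parental cells, and the fibroblast list 1, ACTA2, at 8.77 and 8.42 in the clones, against 8.21 in parental cells. The part of these changes in the receptor results was not tested.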

How the data were processed

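Total RNA of 3 cultures was read on Illumina HumanHT-12 v3 arrays, per the labels' protocols. The authors deposited linear probe intensity values, neither background-subtracted nor normalized, and a second table of processed intensity values (median 59.7 on each array). The software behind either table is not named in any label or header. Probes were named through the platform annotation and RefSeq (28098 of 48803 had 1 gene, 13 several, 20692 none listed; 28059 symbols matched RefSeq). Signals were corrected with normexp (offset 16), taken to log2 and quantile normalized in limma 3.58.1 (R 4.3.3). Background was set per array from its dim probes at a one-sided p of 0.01. The brightest entering probe stood for a gene. limma's lmFit and eBayes compared 2 resistant arrays with 1 parental array (1 residual degree of freedom, 4.08 prior), with Benjamini-Hochberg adjustment over 11914 genes, and were tested on simulated data. A gene below background throughout a group has a bound, the bright group's mean over the higher of the dim arrays' detection floor and own signal. Each bound holds for 1 probe and the main processing, and is no floor under other settings. Named genes were those called, 2-fold off in both clones or between clones, the 8 brightest, and the GPRC5, ADGRF, ADGRG and ADGRL families. The genes and lists were chosen with earlier results of these data known, and the promoter motifs after values were seen. With 3 arrays, their number limits the precision.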

Additional observations from a re-analysis of the deposited data

Results flagged for a closer look

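GPR160 moved in opposite directions in the resistant clones. Its log2 signal was 9.03 in clone 2 and 7.51 in clone 1, a difference of 1.52, and the parental value of 8.38 lay between them. The difference was not tested, since each clone had 1 array.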

How the results depend on the processing

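The 4 receptor calls by limma held under 8 of the 9 alternatives tried, for the background correction, the scaling, the authors' processed values, the filter, the probe rule and the variance trend, with ADGRG1 added under median scaling (adjusted p = 0.0448) and without the filter on dim probes (0.0365). The exception was the filter that keeps only probes above background on all arrays, which leaves out genes below background in a group. It left 0 of 19 genes of the set called by limma, with 5 at an unadjusted p under 0.05. In all, 282 genes were called there (148 higher, 134 lower). Under that filter 3 genes of the set were at least 2-fold off in clone 1 and 4 in clone 2. Adjusted p over the settings ran between 0.000352 and 0.00483 for ADGRF1, 0.00375 and 0.0247 for ADGRL2, 0.00434 and 0.0258 for ADGRV1, and 0.00236 and 0.0183 for GPR37. Sizes moved more: the ADGRF1 difference was −4.28, ADGRV1 −1.80 and ADGRG1 −1.96 with the mean of a gene's probes, which averages in dimmer ones, and with offset 50 ADGRF1 was −5.01, ADGRL2 2.24, GPR37 2.09 and ADGRB3 1.13. The receptors at least 2-fold apart between the clones numbered 2 (ADGRG1 and GPR160) with offset 50, without background correction and with the authors' processed values. GPR89B changed sign with the mean of its probes (0.0397), and the cause was not tested. A detection p of 0.001 left 28 genes of the set detected, and 0.05 gave 49. Leaving out clone 1 or clone 2 gives values with no test, with no residual degrees of freedom left: the ADGRF1 difference was −6.13 without clone 1 and −6.06 without clone 2. GPR160 was 0.66 without clone 1 and −0.87 without clone 2. No paired analysis was possible because both clones were set against the same parental array. Genes near background are limited by signal.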
